A study of Mus musculus with 20 samples.

Results

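Acute-phase and neutrophil genes were followed across the 20 libraries of a study of mice with a germline deletion of Klf14, which encodes a Krüppel-like zinc finger transcription factor. The set holds 10 of the 24062 genes counted: Saa1, Saa2, Saa3, Hp, Orm1, S100a8, S100a9, Lcn2, Il1b and Cxcl1. They were chosen by name, because 1 labelled knockout (KO) library of iWAT (inguinal white adipose tissue, a fat pad under the skin of the groin) stood far above the rest for Saa1 and S100a8. The differences among the iWAT libraries are therefore given as a description, with no test.

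The libraries fall into 4 groups of 5: labelled KO iWAT, labelled wild type (WT) iWAT, labelled KO pituitary and labelled WT pituitary. All came from male C57BL/6N mice on chow, with no treatment named. The replicate numbers are those in the sample titles: 31, 32, 35, 50 and 66 for labelled KO, and 33, 34, 48, 49 and 56 for labelled WT, in both tissues. Replicate 50 of labelled KO was 19 weeks old and the other labelled KO replicates 21 weeks. Of the labelled WT replicates, 33 and 34 were 21 weeks old, 48 and 49 were 19 weeks old, and 56 was 18 weeks old. No label states that each library is a separate mouse, nor that a number shared by both tissues is 1 mouse. The p-values here measure only the spread among the libraries sequenced.

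The liver answers infection, injury or inflammation by releasing acute-phase proteins into the blood, driven by interleukin-6 through STAT3 and C/EBP factors and by interleukin-1 through NF-kB. Fat makes some of these proteins as well, haptoglobin and serum amyloid A3 among them. Neutrophils, the first white blood cells to reach a site of injury, carry the calcium-binding proteins S100A8 and S100A9 as calprotectin, and store lipocalin-2, which starves bacteria of iron by binding their siderophores. The cytokine interleukin-1 beta and the chemokine CXCL1, which attracts neutrophils, are signals of the same response.

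Total counts were 14.8 to 18.7 M per iWAT library and 13.6 to 17.6 M per pituitary library. The adipocyte gene Adipoq averaged 1317 ± 454.7 CPM (counts per 1 M counts) in labelled WT iWAT and was at 0 in labelled WT pituitary, and Gh, which encodes growth hormone, averaged 0.454 ± 0.273 CPM in labelled WT iWAT and 92930 ± 16930 CPM in labelled WT pituitary (SD, n = 5 each). Klf14 went against the labels in the pituitary, with means of 32.4 ± 2.98 CPM over the 5 labelled KO libraries and 16.1 ± 1.78 CPM over the 5 labelled WT libraries (SD). In iWAT, labelled KO replicate 32 held pituitary hormone RNA, with 94.3 CPM of Gh against at most 0.991 CPM in the other 9 libraries. Labelled KO replicate 50 of iWAT was the highest of the 10 iWAT libraries for 26.4% of the 16105 genes tested and the lowest for 29.4%, and labelled KO replicate 50 of the pituitary was the highest of 10 for 13.3% of 16389 genes. CPM were computed on scaled library sizes, as described under the processing.

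Saa1, Saa2 and Saa3 lie close together on chromosome 7 (mm10), at 46740499 to 46742980 on the minus strand, 46751833 to 46754314 on the plus strand and 46711998 to 46715676 on the minus strand. S100a8 and S100a9 are neighbours on chromosome 3, at 90669071 to 90670034 on the plus strand and 90692630 to 90695721 on the minus strand. The 250 bases before the start of these genes are shown because these 5 members had the widest gaps between labelled KO replicate 50 of iWAT and every other iWAT library. The sequences are from RefSeq (GRCm38.p6), 5′ to 3′ on the strand of the gene, at chr7:46742981-46743230 (Saa1, minus), chr7:46751583-46751832 (Saa2, plus), chr7:46715677-46715926 (Saa3, minus), chr3:90668821-90669070 (S100a8, plus) and chr3:90695722-90695971 (S100a9, minus). Capitals mark matches, on either strand, to the letters TTGCNNAA (C/EBP) or to GGNNTTTCC (a short form of the NF-kB motif). The letters TTCNNNGAA (STAT) were searched too, and no match in these 5 windows overlaps another.
Saa1: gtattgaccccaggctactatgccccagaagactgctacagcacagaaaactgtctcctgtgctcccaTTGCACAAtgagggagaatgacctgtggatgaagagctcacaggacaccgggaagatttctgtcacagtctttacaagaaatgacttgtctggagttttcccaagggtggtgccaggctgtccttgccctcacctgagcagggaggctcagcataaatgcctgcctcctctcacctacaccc
Saa2: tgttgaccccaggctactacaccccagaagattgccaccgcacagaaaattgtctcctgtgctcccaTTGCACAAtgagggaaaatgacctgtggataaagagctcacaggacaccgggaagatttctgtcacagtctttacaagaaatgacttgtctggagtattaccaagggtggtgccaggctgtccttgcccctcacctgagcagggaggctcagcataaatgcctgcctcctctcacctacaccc
Saa3: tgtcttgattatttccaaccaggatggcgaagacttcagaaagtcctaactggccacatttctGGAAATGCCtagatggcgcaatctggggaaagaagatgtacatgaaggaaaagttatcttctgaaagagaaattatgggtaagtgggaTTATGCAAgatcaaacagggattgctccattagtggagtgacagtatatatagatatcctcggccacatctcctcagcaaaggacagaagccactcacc
S100a8: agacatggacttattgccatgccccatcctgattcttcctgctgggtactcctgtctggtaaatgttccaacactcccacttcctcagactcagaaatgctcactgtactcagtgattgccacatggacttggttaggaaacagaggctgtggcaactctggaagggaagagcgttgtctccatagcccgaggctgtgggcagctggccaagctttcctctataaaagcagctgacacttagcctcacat
S100a9: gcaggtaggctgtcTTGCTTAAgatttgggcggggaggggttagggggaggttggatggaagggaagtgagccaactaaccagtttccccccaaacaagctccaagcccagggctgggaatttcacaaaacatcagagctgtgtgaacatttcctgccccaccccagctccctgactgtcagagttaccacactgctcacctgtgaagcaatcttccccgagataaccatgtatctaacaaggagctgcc
Saa1 and Saa2 each hold 1 C/EBP match, starting at -182 and -183, in windows that are 94.8% identical, with 13 differences over 251 aligned positions. Saa3, whose window is 48.9% identical to that of Saa1, holds an NF-kB match at -187 and a C/EBP match at -99. S100a9 holds a C/EBP match at -236, and S100a8 none of the 3 motifs. Of the 32851 mouse promoters of the same length, 9.56% hold the C/EBP letters, 4.93% the NF-kB letters and 7.02% the STAT letters. Of the other members with an entry, Lcn2 holds a C/EBP match, Cxcl1 holds NF-kB matches at -89 and -70, and Il1b holds none. Hp and Orm1 were not matched.

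The serum amyloid A genes, which encode apolipoproteins of high-density lipoprotein that rise steeply in the blood in the acute phase, stood out in iWAT of labelled KO replicate 50 alone. In the order of replicates given above, Saa1 lay at 0.0522, 11.99, 2.52, 157 and 0.417 CPM in labelled KO iWAT, against 1.12, 0.128, 0.0608, 1.605 and 1.45 CPM in labelled WT iWAT. The value of 157 CPM rests on 2203 counts, against 169 counts in replicate 32, the next highest library. The labelled KO group spans both the lowest and the highest library, so it overlaps the labelled WT group over its whole range.
Saa2 lay at 0.0522, 7.87, 1.08, 151 and 0.536 CPM in labelled KO iWAT, against 0.625, 0.0641, 0, 0.535 and 0.925 CPM in labelled WT iWAT. The 2112 counts of replicate 50 compare with at most 111 elsewhere, and labelled WT replicate 48 had no count. Saa2 did not pass the filter on low counts, as it was low in most libraries.
Saa3, the serum amyloid A gene expressed mainly outside the liver, lay at 3.70, 7.02, 1.92, 42.1 and 0.596 CPM in labelled KO iWAT, against 1.81, 1.09, 2.31, 2.61 and 0.462 CPM in labelled WT iWAT. It too was highest in replicate 50 and next highest in replicate 32, while replicate 66 of labelled KO sat among the lowest. Labelled KO replicate 50 was 13.1-fold above the next library for Saa1 and 19.2-fold above it for Saa2. The labelled WT replicates 48 and 49, of the same age as replicate 50, had 1 and 24 counts of Saa1.
In the pituitary all 3 genes were at 0 to 3 counts in each of the 10 libraries, replicate 50 included, where Saa1 and Saa2 had no count and Saa3 had 2. A count of 0 in the pituitary library of replicate 50 allows up to 0.221 CPM (3 counts). Labelled KO replicate 32 of iWAT, the next highest library for all 3 genes, is the one that holds pituitary hormone RNA, whose part in these levels was not tested.

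**Figure D1:**
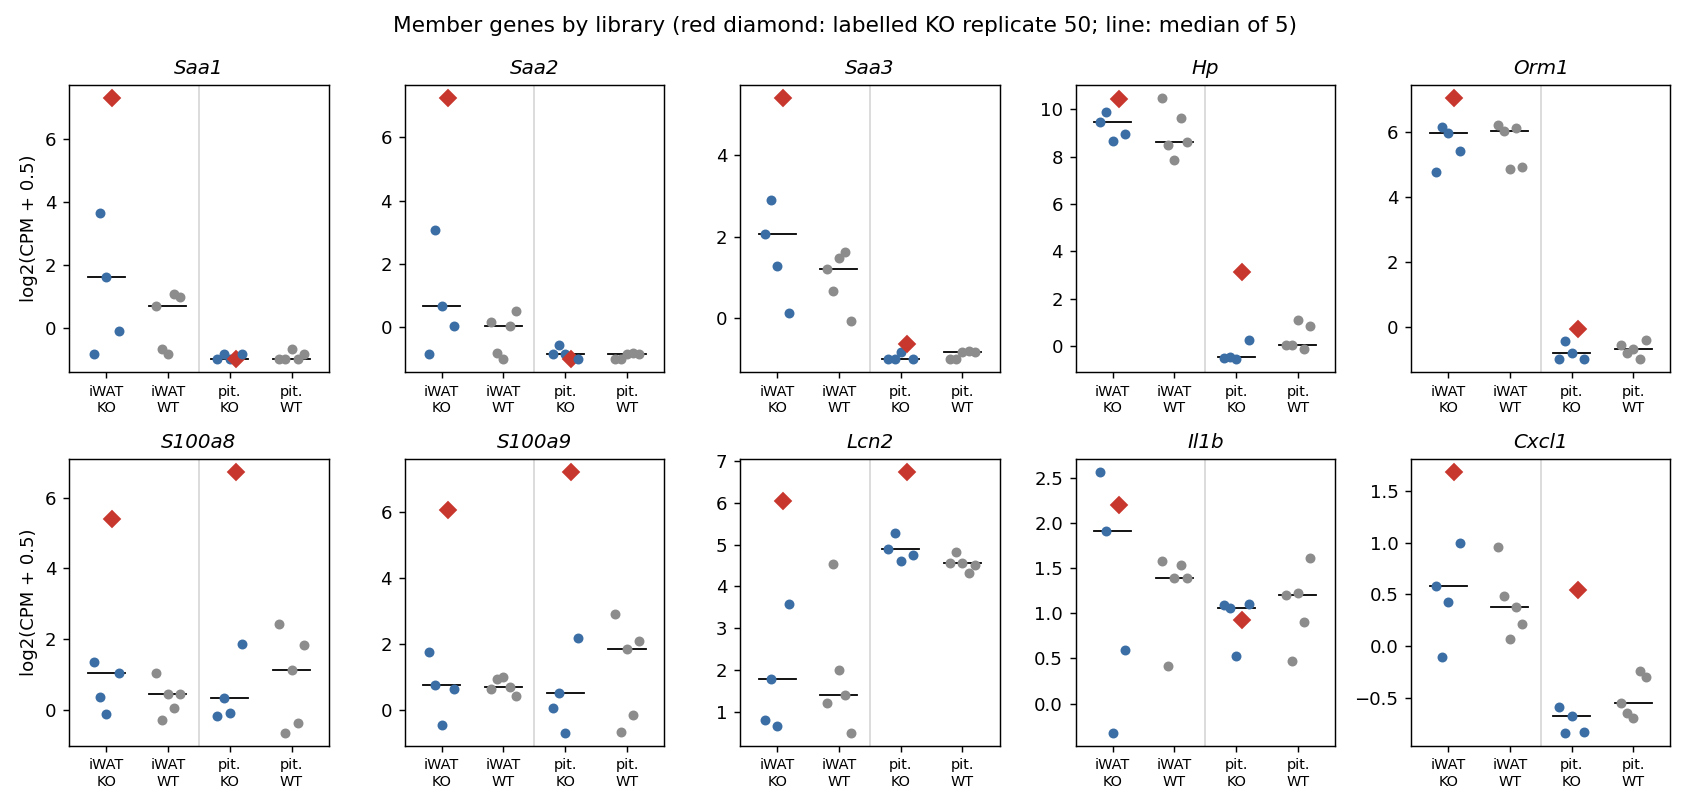
Level of each of the 10 genes in every library, as log2(CPM + 0.5) on the vertical axis, with labelled KO left of labelled WT within each tissue; red diamonds are labelled KO replicate 50 and black lines the median of 5 libraries. Replicate 50 is apart for Saa1, Saa2 and Saa3 in iWAT only, and for S100a8, S100a9 and Lcn2 in both tissues.

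Hp and Orm1, which encode the haemoglobin-binding protein haptoglobin and the plasma carrier orosomucoid, were abundant in every iWAT library. Hp lay at 703.9, 929.7, 402.3, 1359 and 496.7 CPM in labelled KO iWAT, against 1416, 356.5, 231.6, 799.5 and 390.6 CPM in labelled WT iWAT. Replicate 50 was thus the second highest library, below labelled WT replicate 33, and the groups overlap.
Orm1 lay at 26.6, 70.4, 61.6, 131 and 42.05 CPM in labelled KO iWAT, against 73.6, 64.3, 28.3, 68.5 and 29.4 CPM in labelled WT iWAT. Replicate 50 was 1.78-fold above the next library. Of the 676 windows of 100 bases in the Orm1 transcript, 47 also occur in Orm2, so reads from those cannot be assigned to 1 of the 2 genes, whereas no such window is shared by the other 9 members.
Per kilobase of counted exon, Hp averaged 474.9 CPM and Orm1 68.8 CPM in labelled WT iWAT, well above Lcn2 at 7.28 CPM and Saa3 at 3.12 CPM per kilobase. In the pituitary Hp was low, at 0.217, 0.235, 0.189, 8.27 and 0.696 CPM in labelled KO, against 0.540, 0.548, 1.66, 0.412 and 1.31 CPM in labelled WT. The 112 counts of Hp in pituitary replicate 50 were 4.98-fold above the next library, and the 6 counts of Orm1 there were also the most of the 10.

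The calprotectin genes were high in the replicate 50 library of both tissues. S100a8 lay at 2.04, 0.780, 0.420, 41.8 and 1.55 CPM in labelled KO iWAT, against 1.56, 0.321, 0.851, 0.535 and 0.859 CPM in labelled WT iWAT. In the pituitary S100a8 lay at 0.380, 0.764, 0.441, 106 and 3.16 CPM in labelled KO, against 4.86, 0.137, 1.66, 0.274 and 3.05 CPM in labelled WT. Apart from replicate 50, the pituitary libraries of both labels ran between 2 and 81 counts, with labelled WT replicate 33 the highest.
S100a9 lay at 2.92, 1.21, 0.240, 65.8 and 1.07 CPM in labelled KO iWAT, against 1.06, 1.41, 1.52, 1.14 and 0.859 CPM in labelled WT iWAT. In the pituitary it lay at 0.543, 0.940, 0.126, 147 and 4.05 CPM in labelled KO, against 6.96, 0.137, 3.15, 0.412 and 3.73 CPM in labelled WT. For both genes the next highest pituitary libraries were labelled WT replicate 33, labelled KO replicate 66 and labelled WT replicates 56 and 48, in that order, and replicate 50 is far above the other 9 in each tissue. In these bulk samples more cells of a type and more RNA per cell cannot be told apart.
Lcn2 lay at 1.25, 2.98, 1.08, 65.0 and 11.5 CPM in labelled KO iWAT, against 1.81, 22.6, 3.53, 2.14 and 0.925 CPM in labelled WT iWAT. In the pituitary it lay at 29.0, 38.0, 23.9, 106 and 26.6 CPM in labelled KO, against 23.2, 27.7, 22.9, 19.6 and 22.3 CPM in labelled WT. Unlike the calprotectin genes, Lcn2 was well expressed in every pituitary library, and replicate 50 of iWAT was 2.87-fold above labelled WT replicate 34, the next library.

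Il1b and Cxcl1, the signalling members, were low in every library. Il1b lay at 5.43, 3.26, 0.30, 4.08 and 1.01 CPM in labelled KO iWAT, against 2.50, 0.834, 2.13, 2.41 and 2.11 CPM in labelled WT iWAT, so that replicate 31, not replicate 50, was the highest. In the pituitary Il1b ran between 0.944 and 1.64 CPM in labelled KO, against 0.891 to 2.55 CPM in labelled WT, with replicate 50 the seventh of 10. Cxcl1 lay at 0.991, 0.426, 0.840, 2.72 and 1.49 CPM in labelled KO iWAT, against 1.44, 0.898, 0.547, 0.802 and 0.660 CPM in labelled WT iWAT. In pituitary replicate 50 Cxcl1 had 13 counts, against at most 5 in the other libraries.

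In iWAT, labelled KO replicate 50 was the highest of the 10 libraries for 8 of the 10 members, and for 7 of the 9 that passed the filter, where it was so for 26.4% of all genes tested. It was at least 4-fold above every other library, on the log2(CPM + 0.5) scale, for 5 of the 10 members (Saa1, Saa2, Saa3, S100a8 and S100a9), 4 of them among the 9 that passed the filter, where 7 of 16105 genes tested (0.0435%) were so. Since the members were chosen on this library, both counts are descriptions. In the pituitary, replicate 50 was the highest for 3 of the 4 members that passed the filter, against 13.3% of all genes tested. Over all 10 members in the pituitary the count was 7, among them Saa3 at 2 counts and Orm1 at 6. The share of 13.3% is over filtered genes only and is no like background for that count. There S100a8, S100a9 and the untested Hp were at least 4-fold above every other library, where 0.0671% of the genes tested were so. No member separated all labelled KO from all labelled WT libraries in either tissue, and 0.0745% of genes in iWAT and 2.85% in the pituitary did.

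**Figure D2:**
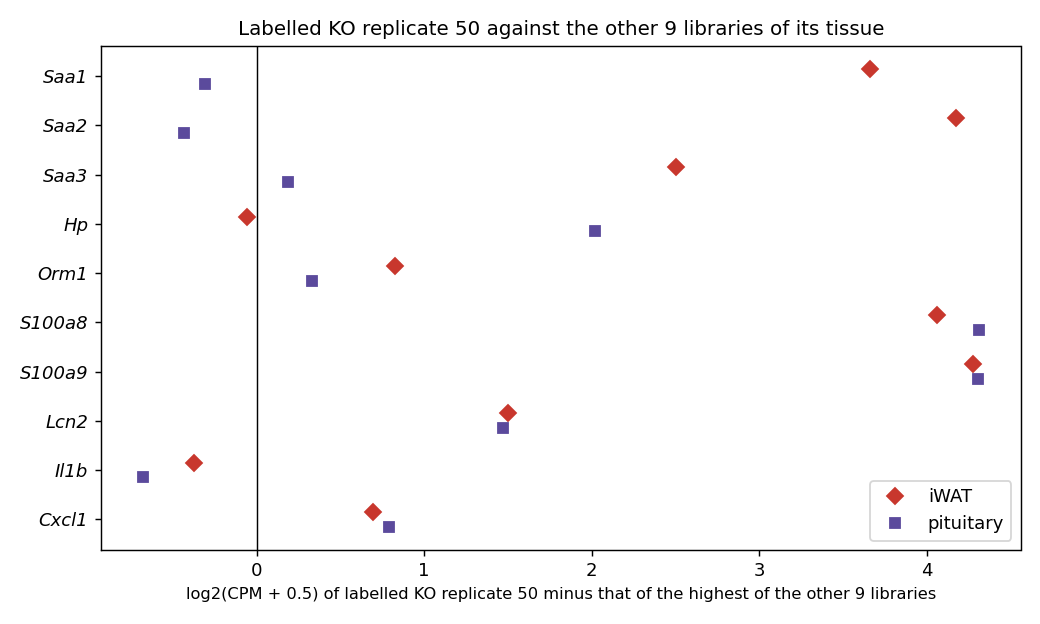
Difference between labelled KO replicate 50 and the highest of the other 9 libraries of the same tissue, in log2(CPM + 0.5), for each gene; positive values mean that replicate 50 is the highest. S100a8 and S100a9 exceed 4 log2 units in both tissues, whereas Saa1 and Saa2 are at 3.66 and 4.18 in iWAT and below 0 in the pituitary.

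As a description, the counting interval of the Saa1 share in iWAT replicate 50 lay below that of the other 9 iWAT libraries summed. The intervals for S100a8 and S100a9 overlapped in both tissues. Saa1 made up 51.0% of the Saa1 and Saa2 counts in iWAT replicate 50 (95% exact Clopper-Pearson interval 49.6 to 52.6%, 4315 counts), against 62.4% over the other 9 iWAT libraries summed (57.8 to 66.9%, 458 counts). Of those 458 counts 280 came from labelled KO replicate 32 alone, where the share was 60.4% (54.4 to 66.1%). Single iWAT libraries with at least 16 counts ran from 43.75% (labelled KO replicate 66) to 75.0% (labelled WT replicate 49). The transcripts of both genes are 93.9% identical, with 37 differences over 609 aligned positions, and share no exact run of 100 bases, the read length. S100a8 made up 38.9% of the S100a8 and S100a9 counts in iWAT replicate 50 (36.4 to 41.4%), against 43.9% over the other 9 iWAT libraries (38.5 to 49.4%). In the pituitary that share was 41.8% in replicate 50 (40.2 to 43.5%), against 42.3% in the other 9 libraries (38.2 to 46.5%). These intervals cover counting error only and not the spread between libraries, so they are no test of a difference.

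**Figure D3:**
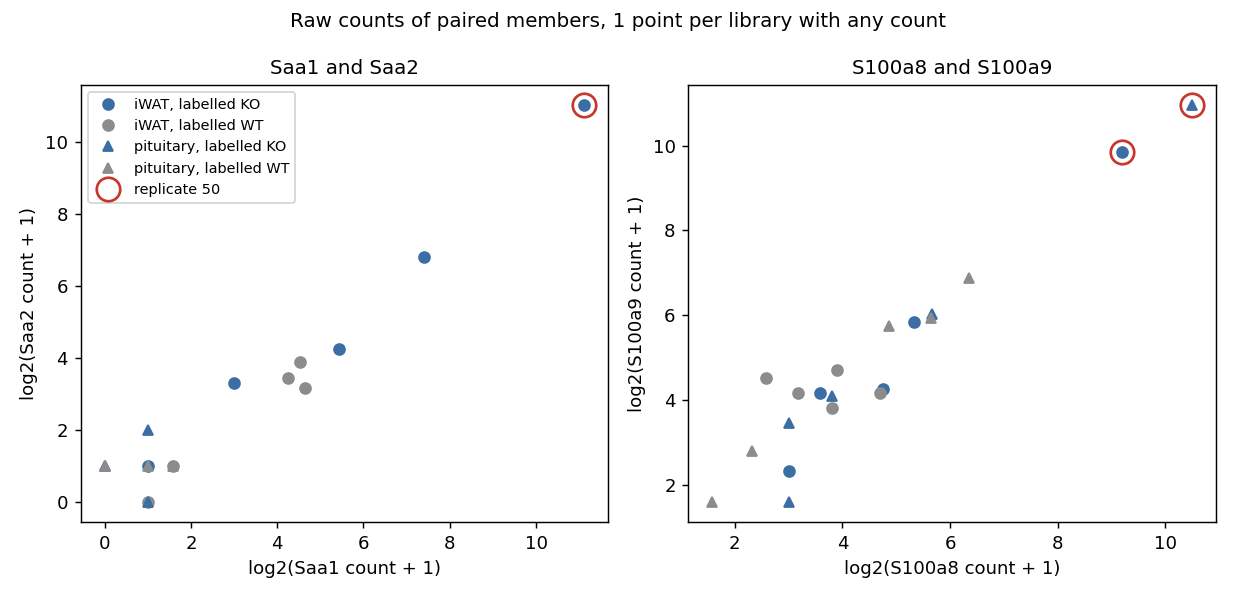
Raw counts of Saa1 against Saa2 and of S100a8 against S100a9, as log2(count + 1), with 1 point per library that has a count; circles are iWAT, triangles pituitary, and red rings mark replicate 50. For S100a8 and S100a9 the ringed libraries are the highest in both tissues; for Saa1 and Saa2 only the iWAT library of replicate 50 is at the top.

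Whether the labelled genotypes differed was tested in the pituitary, whose libraries the choice of members did not use. None of the 4 members tested passed in edgeR's quasi-likelihood test with Benjamini-Hochberg adjustment over 16389 genes, of which 90 (0.549%) passed. None of the 4 had an unadjusted p under 0.05, and DESeq2 called 0 of the 2 to which it gave an adjusted p. The log2 fold change, labelled KO over labelled WT, was 3.38 ± 1.76 for S100a8 (SE, adjusted p = 0.546, edgeR) and 3.32 ± 1.79 for S100a9 (adjusted p = 0.563, edgeR). Without labelled KO replicate 50 both turned negative, at -0.81 ± 0.976 and -1.08 ± 1.07. Lcn2 had a log2 fold change of 0.93 ± 0.434 (adjusted p = 0.489, edgeR), and 0.34 ± 0.126 without replicate 50 (adjusted p = 0.304, edgeR). Il1b had one of -0.24 ± 0.258 (adjusted p = 0.796, edgeR). Saa1, Saa2, Saa3, Hp, Orm1 and Cxcl1 were too low in the pituitary to be tested.
In iWAT edgeR called 0 of 16105 genes (0.0%), with 89 at an unadjusted p under 0.05, and DESeq2 called 0. As a description, the log2 fold change of labelled KO over labelled WT was 5.30 ± 1.80 (SE) for Saa1 with all 10 libraries and 2.08 ± 1.21 without replicate 50. It was 3.47 ± 1.28 and 0.54 ± 0.530 for S100a8, and 3.56 ± 1.37 and 0.19 ± 0.532 for S100a9. Saa3 had 2.73 ± 1.03 with all libraries and 0.99 ± 0.656 without replicate 50. Lcn2 had 1.39 ± 1.25 with all libraries and -0.56 ± 1.04 without it. Hp, Orm1, Il1b and Cxcl1 ran from 0.28 to 0.56 with all libraries and from -0.07 to 0.33 without replicate 50.

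**Figure D4:**
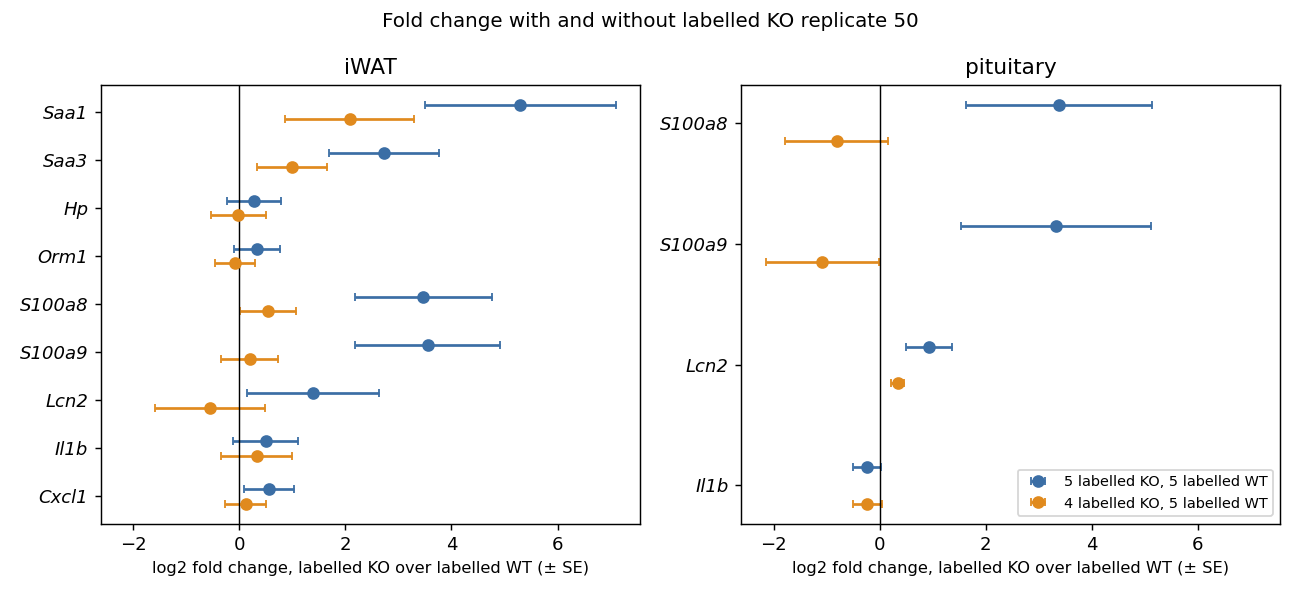
Log2 fold change of labelled KO over labelled WT, with standard errors, for the members that passed the filter in each tissue, with all 5 labelled KO libraries (blue) and without replicate 50 (orange). In the pituitary S100a8 and S100a9 lie at 3.38 and 3.32 with replicate 50 and at -0.81 and -1.08 without it.

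The tissues were compared in the labelled WT libraries, which leave out replicate 50. Hp and Orm1 were much higher in iWAT than in the pituitary and Lcn2 was lower. Of the 6 members tested 3 passed in edgeR's quasi-likelihood test, where 79.1% of 17023 genes did. Hp averaged 638.8 ± 483.8 CPM in iWAT and 0.893 ± 0.556 CPM in the pituitary (SD, n = 5 each), a log2 fold change of 9.45 ± 0.695 (SE, adjusted p = 2.1e-07, edgeR). Orm1 averaged 52.8 ± 22.1 CPM in iWAT and 0.123 ± 0.0964 CPM in the pituitary (SD), a log2 fold change of 8.62 ± 0.510 (adjusted p = 3.7e-08, edgeR). Every iWAT library was above every pituitary library for both genes.
Lcn2 averaged 6.21 ± 9.23 CPM in iWAT and 23.1 ± 2.93 CPM in the pituitary (SD), a log2 fold change of -1.89 ± 0.700 (adjusted p = 0.0275, edgeR). That call was lost without replicate 33, 48, 49 or 56 (adjusted p = 0.0847, 0.0830, 0.0697 and 0.0714, edgeR) and held without replicate 34, the highest labelled WT iWAT library for Lcn2 (log2 fold change -3.36). S100a8 and S100a9 had log2 fold changes of -1.27 ± 0.760 and -1.26 ± 0.721 that did not pass (adjusted p = 0.146 and 0.128, edgeR), and S100a9 passed without replicate 34 (adjusted p = 0.0405). Il1b had 0.24 ± 0.327 (adjusted p = 0.517, edgeR).
Saa1, Saa2, Saa3 and Cxcl1 did not pass the filter, and their counts were summed over 5 libraries a tissue. The sums were 67, 33, 130 and 68 in iWAT, against 3, 3, 3 and 17 in the pituitary. Relative to the summed library sizes, Saa3 was 43.7-fold higher in iWAT (95% interval 14.6 to 215, counting error only), Saa1 22.5-fold (7.38 to 112), Saa2 11.1-fold (3.48 to 56.5) and Cxcl1 4.03-fold (2.34 to 7.32).

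The rest of the response was read from lists of related genes, none of which had a gene past the threshold between the genotype labels in edgeR, in either tissue. In the pituitary 0 of 139 list genes tested passed, with 9 at an unadjusted p under 0.05, against 1792 of all 16389 genes. DESeq2 called 2 list genes, the muscle marker Pvalb and the hormone subunit gene Cga. With age as a covariate, and in that setting alone, edgeR called Serpina3n in the pituitary (log2 fold change 3.06 ± 0.36, SE, adjusted p = 0.0032). Replicate 50, the highest pituitary library for Serpina3n, was the only labelled KO replicate not 21 weeks old. Within labelled KO, age and that library thus cannot be told apart. Pvalb was called without labelled KO replicate 31 and Cga without labelled WT replicate 48 (adjusted p = 0.0496 and 0.0448, edgeR). In iWAT 0 of 179 passed, with 2 at an unadjusted p under 0.05, and DESeq2 called 0. Most other plasma acute-phase genes were high in iWAT replicate 50, with 18 of the 25 tested at their highest of 10 there against 26.4% of all genes. Hpx, which encodes the haem-binding hemopexin, was at 335.7 CPM in replicate 50 and at most 45.1 CPM in the other iWAT libraries. Itih3 and Itih4, which encode inter-alpha-trypsin inhibitor heavy chains, were at 74.7 and 85.9 CPM in replicate 50, against at most 21.2 and 25.9 CPM in the others. Saa4, the constitutive serum amyloid A gene, was at 13.7 CPM, against at most 3.78 CPM. Serpina3g went the other way, the lowest of 10 at 13.4 CPM against at least 30.6 CPM. Ptx3, Orm3 and Serpina3n ranked 7, 6 and 4 of 10 in iWAT replicate 50, and Cfb, Lrg1 and Serpina3c ranked 2. The list summed to 9953 CPM in replicate 50, against 3607 to 4897 CPM in the other labelled KO and 3512 to 6196 CPM in the labelled WT iWAT libraries. In the pituitary 11 of the 15 tested were highest in replicate 50, with the complement genes C3 at 121.5 CPM and C4b at 37.0 CPM, against at most 13.3 and 5.16 CPM in the others. The protease inhibitor gene Serpina3n was at 15.0 CPM there, against at most 2.35 CPM. Of these 15 genes 2 had an unadjusted p under 0.05 for genotype, as did 1 of the 25 in iWAT. Of all genes tested, 1792 of 16389 in the pituitary and 89 of 16105 in iWAT did. The median log2 fold change of these acute-phase genes, labelled KO over labelled WT, was 0.24 in the pituitary, where that of all genes tested was 0.0036. It was 0.71 in iWAT, where that of all genes was -0.0002. Both medians include replicate 50, the highest library for most of these genes, and none without it is given. They are therefore descriptions and do not show a shift shared by the labelled KO libraries.
Between tissues, in the labelled WT libraries, 17 of the 21 other acute-phase genes tested were higher in iWAT in edgeR's test and 0 were lower, against 38.9% and 40.2% of all genes. Their median log2 fold change of iWAT over pituitary was 4.22, against -0.01 over all genes tested. C3, the central complement protein gene, had a log2 fold change of 7.72 ± 0.264 (SE, adjusted p = 6.1e-10, edgeR) and C4b one of 8.79 ± 0.408 (adjusted p = 5.8e-09, edgeR). Of 16 NF-kB and inflammasome genes 15 were higher in iWAT and 1 was lower, and of 14 interleukin-6, STAT3 and C/EBP pathway genes 10 were higher and 1 was lower.

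Neutrophil markers also summed highest in the replicate 50 library of both tissues. In the pituitary 8 of the 9 tested were at their highest there, against 13.3% of all genes. Ngp, a neutrophil granule gene, was at 66.2 CPM in replicate 50 of the pituitary, against at most 3.78 CPM elsewhere, and Camp, which encodes an antimicrobial granule peptide, was at 22.5 CPM, against at most 1.44 CPM. Mpo, which encodes myeloperoxidase, was at 14.1 CPM, against at most 1.02 CPM. Retnlg, a resistin-like gene of neutrophils, was at 14.6 CPM, against at most 1.14 CPM. Camp, Mpo and Retnlg did not pass the filter. The list summed to 343.5 CPM in replicate 50, against 70.2 to 81.1 CPM in the other labelled KO and 71.8 to 107.4 CPM in the labelled WT pituitary libraries. Much of the level outside replicate 50 is the collagenase gene Mmp8, at 44.05 to 50.1 CPM in the other 9 pituitary libraries and 55.7 CPM in replicate 50. The median log2 fold change of the 9 markers, labelled KO over labelled WT, was 1.13 with replicate 50 included, and none without it is given.
In iWAT 5 of 11 tested markers were highest in replicate 50, against 26.4% of all genes, and over all 22 markers in the files, tested or not, the count was 16. Retnlg had 217 counts, Mmp8 had 109 and Ngp 129, at 15.5, 7.79 and 9.22 CPM, against at most 0.401, 0.30 and 1.03 CPM in the other iWAT libraries, but none of these 3 passed the filter. Among the tested markers Ltf and Slfn4 were at 14.1 and 14.9 CPM in replicate 50, below the 65.2 and 66.5 CPM of the highest labelled WT library for each, and Cxcr2 and Mcemp1 were seventh and ninth of 10. The list summed to 198.5 CPM, against 49.3 to 104.4 CPM in the other labelled KO and 60.0 to 141 CPM in the labelled WT libraries. No marker of the list was at 0 in either replicate 50 library. Between tissues, in labelled WT, 8 of the 14 markers tested were higher in iWAT and 3 were lower in edgeR's test. Of all genes tested 38.9% were higher and 40.2% lower, 79.1% in either direction. The log2 fold changes were 6.08 ± 0.512 for Cxcr2 (SE, adjusted p = 6.3e-07, edgeR) and -7.80 ± 0.168 for Mmp8 (adjusted p = 2.3e-11, edgeR). S100a8 and S100a9 stood apart in both replicate 50 libraries, where the neutrophil list also summed highest. The median log2 gap of replicate 50 to the highest other library was -0.19 over the 11 markers tested in iWAT. It was 1.41 over the 9 tested in the pituitary. The filter left out iWAT markers found mainly in replicate 50, such as Retnlg, Mmp8 and Ngp. The 2 medians thus cover different genes, and the iWAT one does not describe the whole list. The part of neutrophil number in the S100a8 and S100a9 levels was not tested.

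**Figure D5:**
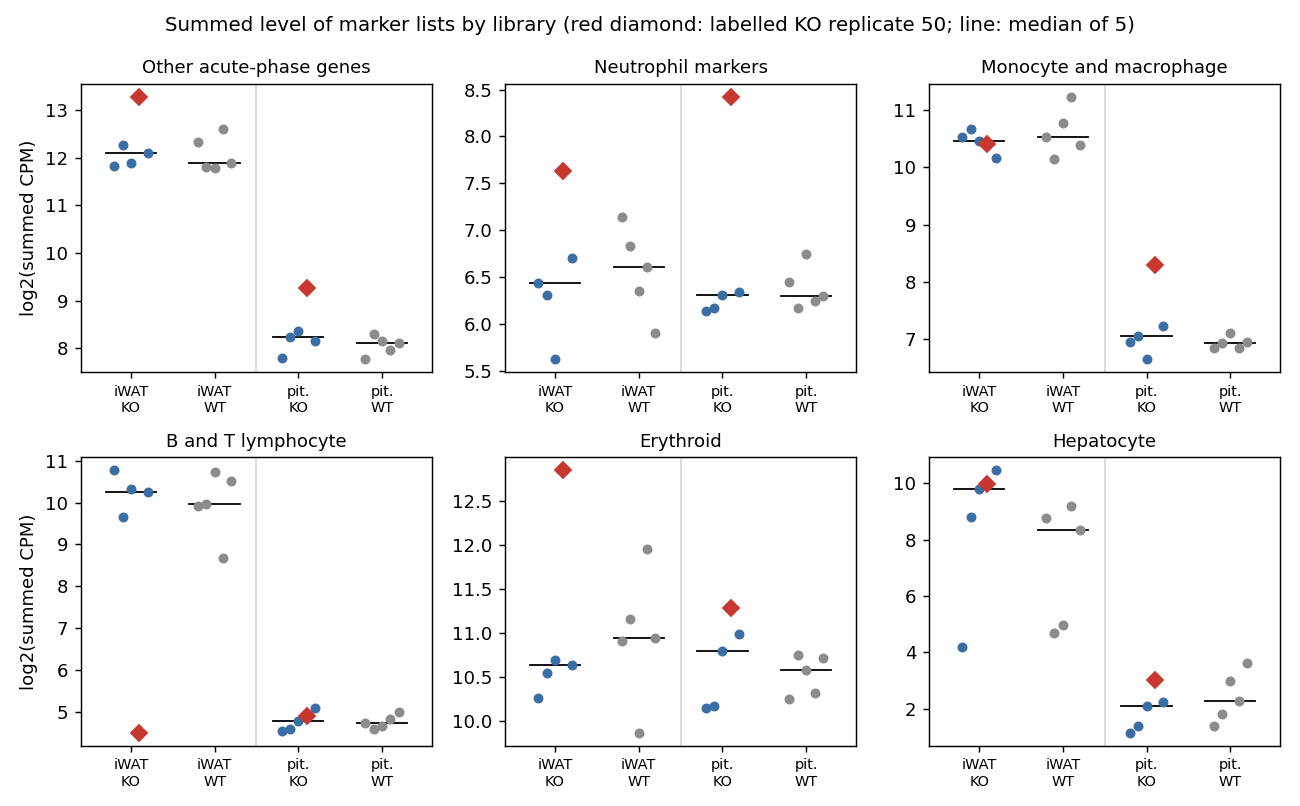
Summed CPM of 6 marker lists in every library, on a log2 axis, with labelled KO left of labelled WT within each tissue; red diamonds are labelled KO replicate 50 and black lines the median of 5. Replicate 50 is highest for other acute-phase genes, neutrophil markers and erythroid markers in both tissues, and for monocyte and macrophage markers in the pituitary only.

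Other cell markers differed between the replicate 50 libraries of the 2 tissues. Of all genes tested, 26.4% were at their highest in that of iWAT and 13.3% in that of the pituitary. Monocyte and macrophage markers were highest in pituitary replicate 50 for 13 of 14 genes, with the lysozyme gene Lyz2 at 72.6 CPM against at most 19.6 CPM, and for 0 of 14 in iWAT replicate 50. Their sum there was 1366 CPM, within the range of the other iWAT libraries. Lymphocyte markers were the lowest of the 10 in iWAT replicate 50 for 13 of 13 genes, against 29.4% of all genes, and summed to 22.6 CPM there, against 806.3 to 1743 CPM in the other labelled KO and 407.6 to 1694 CPM in the labelled WT libraries. Erythroid markers were highest in iWAT replicate 50 for 6 of 6 genes tested, with a sum of 7381 CPM against at most 3986 CPM. In pituitary replicate 50 they were highest for 5 of 6, with a sum of 2499 CPM against at most 2023 CPM. Hepatocyte markers were highest in iWAT replicate 50 for 6 of 9 genes, among them Ambp at 51.9 CPM, Ahsg at 138.8 CPM and Apoa1 at 130.8 CPM, against at most 25.5, 74.1 and 86.8 CPM in the others. The list summed to 1005 CPM in replicate 50 and to 1403 CPM in labelled KO replicate 66, where Alb, which encodes serum albumin, was at 905 CPM, against 407 CPM in replicate 50. Saa1 in replicate 66 was at 0.417 CPM. Adipocyte markers summed to 31460 CPM in iWAT replicate 50, against at most 21940 CPM in the others. Endothelial markers were highest there for 7 of 8 genes and summed to 1451 CPM, against at most 1169 CPM in the others, while Vcam1 was the lowest of 10. Skeletal muscle and epidermis markers summed to 19.7 and 15.2 CPM there, against at least 23.1 and 19.9 CPM in the other iWAT libraries. Replicate 50 was the lowest for 4 of 10 muscle genes and 1 of 4 epidermis genes tested, against 29.4% of all genes. The part of these cell types in the member levels was not tested.

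The upstream pathways gave unlike counts in the 2 tissues. Of all genes tested, 26.4% were highest and 29.4% lowest in iWAT replicate 50, and 13.3% were highest in pituitary replicate 50. Of 17 NF-kB and inflammasome genes 3 were highest in iWAT replicate 50 and 11 were lowest, whereas 12 of the 15 tested were highest in pituitary replicate 50, among them Tnfaip3 at 17.7 CPM against at most 10.1 CPM. Inflammatory cytokines and chemokines were highest in iWAT replicate 50 for 0 of 9 tested and lowest for 4, and Il6 had 1 count there. In pituitary replicate 50 they were highest for 1 of 3 tested. Over all genes of that list the sum there was 23.3 CPM, against at most 16.9 CPM in the other pituitary libraries. Of the 14 interleukin-6, STAT3 and C/EBP pathway genes 5 were highest in iWAT replicate 50: Cebpd, Cebpb, Stat3, Osmr and Il6ra. Another 4 of the 14 were at their lowest there, with the kinase genes Jak1 at 269.9 CPM and Jak2 at 100.7 CPM, against at least 392.7 and 134.7 CPM in the other libraries, together with Junb and Pim1. The share at their highest is near that of all genes. Cebpd, which encodes the C/EBP delta factor, was at 89.7 CPM, against at most 55.1 CPM, and Cebpb at 45.3 CPM, against at most 30.7 CPM. In pituitary replicate 50 the count was 7 of 14, with Osmr, which encodes the oncostatin M receptor, at 25.3 CPM against at most 12.2 CPM. Receptors for the members were highest in iWAT replicate 50 for 4 of 13 tested, a share near that of all genes, with the chemokine-binding receptor Ackr1 at 37.5 CPM against at most 15.2 CPM. In the pituitary the count was 5 of 11, and Cxcr2, the CXCL1 receptor of neutrophils, was at 4.8 CPM against at most 0.206 CPM but did not pass the filter. Of 12 interferon-stimulated genes 1 was highest in iWAT replicate 50 and 6 in pituitary replicate 50.

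Among the tested genes other than the members, list genes included, those farthest above the other 9 libraries in iWAT replicate 50 were led by Apol11b, at 24.4 CPM against at most 2.81 CPM, and Hpx. Fgl1, a fibrinogen-like gene of the liver, was at 33.5 CPM against at most 6.74 CPM, Chil3, a chitinase-like gene of myeloid cells, at 16.3 CPM against at most 4.56 CPM, and Gadd45g, a stress-response gene, at 289 CPM against at most 87.0 CPM. The genes farthest below included Apol7c, at 0.715 CPM against at least 44.6 CPM in the others, Dsc3, and the B cell gene Cd22, at 2.86 CPM against at least 73.5 CPM. In pituitary replicate 50 Ngp and Chil3 led, with Chil3 at 30.4 CPM against at most 1.80 CPM, followed by C3, C4b and the gelatinase gene Mmp9, at 11.7 CPM against at most 1.38 CPM.

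Across the 10 iWAT libraries the gene most like the standardised mean of the 9 members that passed the filter was Mettl9 (Pearson r = 0.962), followed by Cxcl12 and Selp (r = 0.962 and 0.954). Selp encodes the endothelial adhesion molecule P-selectin and was at 49.0 CPM in replicate 50 against at most 15.1 CPM in the others. Without replicate 50 the most like was Osgep (r = 0.974 over 9 libraries), and 0 of the 12 most like genes were shared with the list over all 10 libraries. Across the 10 pituitary libraries, over the 4 members that passed, the most like gene was Bin2 (r = 0.973). The points share a depth and a scaling, and these values are descriptions.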

How the data were processed

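The authors deposited whole-number read counts per gene, not normalized, 1 file per library. Per the labels' protocols, poly(A) RNA was sequenced as about 46 M (mega) single-end reads of 100 nucleotides per sample. Tools named in the submitters' processing notes are STAR 2.4.0 and featureCounts 1.4.4, with builds mm10 and GRCm38. Primary alignments were assigned to exons of a UCSC mm10 annotation, each overlapping gene received the read, and no strand option was set, per the file headers. No member shares exon bases with another gene, although 3147 of the 24062 genes do. Libraries within a group differed beyond sampling noise (reduced chi-square at least 4.51), and 20 samples were used.

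CPM were computed on TMM-scaled library sizes over all 20 libraries. A separate edgeR 4.0.16 fit was made for each comparison, in R 4.3.3 (filterByExpr, TMM, robust quasi-likelihood test, Benjamini-Hochberg adjustment over all genes tested, threshold 0.05). A standard error is the log2 fold change divided by the square root of its F statistic. On simulated counts, edgeR called 98% of genes changed 4-fold in the pituitary (16296 genes), 86% in iWAT (15970; 50% of those changed 2-fold and 14% of those changed 1.5-fold) and 100% between tissues (16870). The alternatives were RLE scaling, no filter, a filter of over 1 CPM in at least 5 libraries, DESeq2 1.42.0, 1 fit over 20 libraries, age as a covariate, leaving out each replicate and, between tissues, the replicate number as a block. CPM on unscaled totals was chosen after seeing the data.

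The members and the 17 other lists were chosen with earlier results of these data known. Of the 232 genes in all lists 1 was not matched (Ly6g) and 1 was matched by an older symbol. All members are named. Per list, up to 4 examples are those farthest above the other libraries in labelled KO replicate 50. Further genes are the 12 farthest above and the 6 farthest below in that library, and the 12 most correlated with the standardised mean of the members. Other genes named, and the pituitary examples, were chosen after their values were seen. Floors are 3 counts. One gene that the rule names is not reported here.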

Additional observations from a re-analysis of the deposited data

Results flagged for a closer look

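Of the 40 sets of 5 libraries (10 genes in 4 groups), 13 had a library far from the other 4 of its group, by a gap over range above 0.71. No chance rate is set against that count. The cut was applied to unlogged CPM, some from few counts, and members such as S100a8 and S100a9 rose in the same libraries. In 11 of the 13 the library was labelled KO replicate 50, as the highest. The members were chosen on the iWAT library of that number, so its 6 iWAT values are descriptions. In iWAT these were Saa1 at 157 CPM, Saa2 at 151 CPM, Saa3 at 42.1 CPM, S100a8 at 41.8 CPM, S100a9 at 65.8 CPM and Lcn2 at 65.0 CPM. In the pituitary they were S100a8 at 106 CPM, S100a9 at 147 CPM, Lcn2 at 106 CPM, Hp at 8.27 CPM and Cxcl1 at 0.96 CPM, the last from 13 counts. In labelled WT iWAT, replicate 34 was far above the others for Lcn2, at 22.6 CPM, and far below them for Il1b, at 0.834 CPM.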

How the results depend on the processing

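In the pituitary no call on a member between the genotype labels changed under any alternative run. Without labelled KO replicate 50 the pituitary log2 fold changes reversed to -0.81 for S100a8 and -1.08 for S100a9, the low ends of ranges that reach 4.01 and 3.94 when other replicates are left out. The number of all genes called in the pituitary was 90, but 284 with DESeq2, 44 with age as a covariate, 1 in the fit over 20 libraries, whose spread includes iWAT, and 50 to 112 when 1 replicate was left out. Labelled KO replicate 32 (55 called without it) and labelled WT replicates 49 (50) and 56 (51) moved that count by over 1.5 times. Between tissues 7 of 10 members were called with no filter and 7 with DESeq2, against 3 of 6, since Saa1, Saa2, Saa3 and Cxcl1 were then tested. Of all genes, about 14830 of 23170 were called with no filter and about 14880 of 20438 with DESeq2. Leaving out 1 replicate gave 2 to 4 members called. The Lcn2 call was lost in the fit over 20 libraries (adjusted p = 0.0827, edgeR; 8.3e-06 to 0.0847 over all alternatives).

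With the replicate number as a block, edgeR called 3 members between tissues, as without it, and Lcn2 had a log2 fold change of -2.71. Deviations of same-numbered libraries correlated at -0.0781 (replicate 50) to 0.12 (replicate 31). Set against the 5 pituitary libraries of the same label, 7 of 10 iWAT libraries correlated best with their own number. Replicates 32, 49 and 50 did not. The numbers were not taken to pair the samples, since no label pairs them. The log2 gap of replicate 50 above the other 9 iWAT libraries ran from 3.55 to 3.73 for Saa1 and from 3.82 to 4.12 for S100a8 over the 3 scalings. Members at a few counts per library limit what can be tested in the pituitary.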
